A study of Mus musculus with 2 samples.

Results

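The genes described here encode the cytotoxic granule of T cells and NK cells. They are 10 genes taken by name: the granzymes *Gzma*, *Gzmb*, *Gzmc*, *Gzmk* and *Gzmm*, the pore-forming protein *Prf1*, the granule matrix and membrane genes *Srgn*, *Nkg7* and *Lamp1*, and the priming factor *Unc13d*. They are 10 of the 20887 named genes on the array, and 10 of the 13513 genes for which a difference between the arrays could be given. All 10 were well above background on both arrays, with 11 probes in all and 1 spot per probe.

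RNA came from sorted small intestinal TCRαβ+CD8αα+ intraepithelial lymphocytes (IELs) of C57BL/6 mice aged 8 to 12 weeks, with both sexes pooled, and 150 ng was labeled with Cy3 per array. The Control array holds RNA of Rbpjf/f mice, for which the labels name no Cre. The study's text describes its controls as Rbpj wild-type mice with CD4-Cre, and gives an upper age below the 12 weeks of the labels. The other array holds RNA of CD4-Cre Rbpjf/f mice, named RFF4. CD4-Cre is driven by the CD4 promoter and deletes floxed alleles in developing αβ T cells. RNA of several isolations was pooled into 1 array per genotype. No test across samples, SE or p-value can therefore be given, and no difference has a replicate check. The comparison asks how the transcripts of IELs differ when *Rbpj*, the nuclear effector of Notch receptors, is deleted in T cells.

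Cytotoxic lymphocytes store granzymes, which are serine proteases, and perforin in secretory lysosomes. On contact with a target cell the granules are transported to the contact site, docked, primed and fused with the plasma membrane. Perforin then forms pores that let granzymes into the target cell. IELs of the small intestine are known to carry abundant granzyme transcripts in healthy mice.

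Levels are given as the log2 of the background-subtracted signal minus the 75th percentile of gene spots on the same array. A level of 0 is thus the signal that 75% of gene spots did not exceed, and levels of different genes are not compared, because probes differ in brightness. Differences are RFF4 minus Control on this log2 scale, and a call means a difference past 2-fold or 4-fold (1 or 2 on the log2 scale). Probes spotted 10 times gave a technical SD of 0.16 for a difference between the arrays. This SD was 0.24 for signals below the 75th percentile, 0.075 for signals up to 4 log2 units above it, and 0.056 for brighter ones. It covers spot-to-spot error only, and not the spread between mice, pools or labelings.

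Some facts of the whole arrays bear on all values below. Of 59305 gene spots, 33915 (57.2%) were well above background on the Control array and 29494 (49.7%) on the array labelled RFF4, with 0 saturated spots on either. The 75th percentile was 8.99 on the log2 scale on the Control array and 7.82 on the other, while the signals of 8 spike-in controls differed by a median of −0.063. Setting the spike-ins equal instead of the 75th percentile lowers every difference by 1.11. All directions in this text are therefore relative to the bulk of the genes on each array. *Rbpj* itself stood at 1.96 on the Control array and 2.28 on the array labelled RFF4, and its dimmer probe at −1.44 and −0.62. Neither probe was lower on the array labelled RFF4 at this scaling, and the brighter one was at −0.78 with spike-ins set equal. The sources used here do not say whether the probes match the deleted part of the gene, so they do not check the label. Among T cell markers, *Cd3e* stood at 8.10 and 8.44 and *Cd8a* at 6.24 and 6.17. *Cd8b1*, whose protein was excluded in the sort, stood at −3.52 on the Control array and was not well above background on the other. *Cd4*, also excluded as a protein, was above background at 1.67 and 1.80.

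Of the 10 cytotoxic granule genes, 7 had a higher level on the array labelled RFF4 and 3 a lower one. Only *Gzma* was more than 2-fold higher, beside 12.3% of all genes. Only *Gzmk* was more than 2-fold lower, beside 5.06% of all genes. None was more than 4-fold higher or lower (0 of 10 in each direction), beside 1.85% of all genes that were higher and 0.585% that were lower. The median difference of the 10 genes was 0.23, beside −0.02 over all 13513 genes. The other 8 genes lay between −0.15 and 0.64. When spike-ins were set equal, all 10 were lower on the array labelled RFF4, from −0.09 for *Gzma* to −2.56 for *Gzmk*, beside 89.8% of all genes that were lower. More than 2-fold lower were then 3 of the 10, beside 55.7% of all genes. In the unscaled signals all 10 were also lower on that array, as were 90.2% of all genes.

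**Figure D1:**
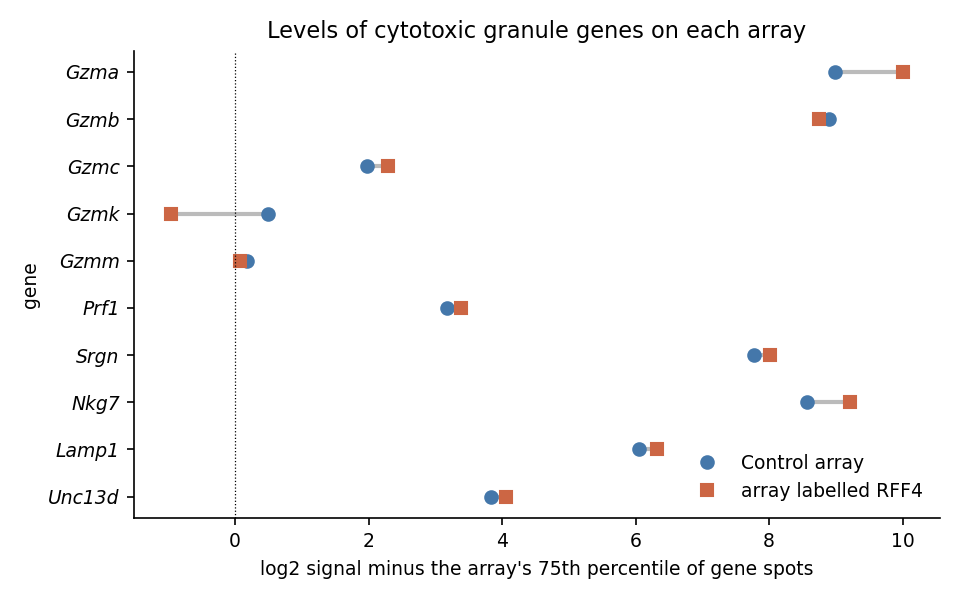
Level of each cytotoxic granule gene on the Control array (circles) and on the array labelled RFF4 (squares), as log2 signal minus the 75th percentile of gene spots, with 1 array per genotype and 1 probe per gene. *Gzma* and *Gzmk* lie farthest apart between the arrays, in opposite directions (1.02 and −1.45) at this scaling; with spike-ins set equal all 10 genes are lower on the array labelled RFF4.

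The granzymes differed from each other in size and direction. *Gzma*, which encodes granzyme A, a protease that cuts after basic residues, had a scanner signal of 258852 on the Control array and 233366 on the array labelled RFF4. After scaling its level was 8.99 and 10.01, which makes it 2.03-fold higher on the array labelled RFF4 (difference 1.02), just past the 2-fold limit. Its sign turned to −0.09 with spike-ins set equal. It fell short of 2-fold under 6 of 11 other ways of processing. The other 5 left it at 1.01 or 1.02, as they must for a gene with 1 bright probe, so they are no check.

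*Gzmb* encodes granzyme B, which cuts after aspartate and activates caspases, and is the granzyme most used as a marker of killing capacity. Its scanner signal was 243469 and 97254.6. After scaling its level was 8.90 on the Control array and 8.75 on the array labelled RFF4. The difference of −0.15 is smaller than the technical SD over all levels, and larger than the SD of the brightest probes. It was lower on the array labelled RFF4 under all 11 alternatives, between −1.26 and −0.15. As for *Gzma*, 5 of these leave its value all but unchanged by construction.

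*Gzmk* encodes granzyme K, a relative of granzyme A that also cuts after basic residues. Its scanner signal was 716.4 and 116.2, above background on both arrays. Its level was 0.49 on the Control array and −0.96 on the array labelled RFF4, which is 2.74-fold lower (difference −1.45). Only 1.84% of all genes had a lower difference. It stayed past the 2-fold limit under all 11 alternatives, from −2.56 with spike-ins to −1.16 with normexp background correction. It was the lowest of the 10 genes in each. Again, 5 of these leave its value all but unchanged by construction.

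The other granzymes were *Gzmc* and *Gzmm*. *Gzmc*, which lies next to *Gzmb* in the genome, stood at 1.97 and 2.29 (difference 0.32). *Gzmm*, a granzyme that cuts after methionine and leucine, stood at 0.18 and 0.07. Its difference of −0.11 is smaller than the technical SD over all levels and larger than the 0.075 at its own level, and cyclic loess brought it to 0.00.

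The contrasts between granzymes do not depend on a constant shift of an array. *Gzma* minus *Gzmb* was 1.17 in log2 units, with a technical SD of 0.23 for such a contrast. Only quantile normalization, cyclic loess and normexp can change this contrast, and it was 1.03, 1.11 and 1.23 with them. *Gzmk* minus *Gzma* was −2.47, and −1.70 with quantile normalization. *Gzmk* minus *Gzmb* was −1.30, and −0.67 with quantile normalization. Of the 45 pairs among the 10 genes, 19 were apart by more than 2 technical SDs when this SD over all levels was used for each pair, and 16 of these involved *Gzma* or *Gzmk*. With the technical SD at the level of each gene, an alternative chosen after seeing the data, 34 were. The other 11 pairs were *Gzmb* with *Gzmm* and all 10 pairs among *Gzmc*, *Prf1*, *Srgn*, *Lamp1* and *Unc13d*.

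*Gzma* and *Gzmk* are adjacent protein-coding genes on chromosome 13, between *Gpx8* and *Esm1*. *Gzmc* and *Gzmb* lie side by side on chromosome 14, at the end of the row *Mcpt1*, *Mcpt2*, *Mcpt9*, *Mcpt4*, *Mcpt8*, *Ctsg*, *Gzme*, *Gzmd*, *Gzmg*, *Gzmn*, *Gzmf*. Of the 5 other granzymes in that row, *Gzmd*, *Gzmf*, *Gzmg* and *Gzmn* were not well above background on either array. Both probes of *Gzme* were above background on the Control array only, and its brighter probe was at least 1.16-fold higher there. These granzymes are similar in sequence, and binding of one gene's RNA to another's probe was not checked, because probe sequences were not analysed here.

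The promoters of *Gzma* and *Gzmk* are shown because these neighbors differed most and in opposite directions, that of *Gzmb* because its difference was far from that of *Gzma*, and that of *Prf1* because it holds the RBPJ core motif. Each is the 250 bases before a RefSeq transcript start in build GRCm38.p6, written along the gene. Capitals mark every match to the motifs searched on both strands: the RBPJ core TGGGAA and its longer form GTGGGAA, the cyclic AMP response element TGACGTCA and its shorter form TGACG, RUNX TGTGGT and T-box GGTGTGA. The longer RBPJ form contains the core, and the full cyclic AMP element contains the shorter form.
*Gzma*, chr13:113100982-113101231, minus strand: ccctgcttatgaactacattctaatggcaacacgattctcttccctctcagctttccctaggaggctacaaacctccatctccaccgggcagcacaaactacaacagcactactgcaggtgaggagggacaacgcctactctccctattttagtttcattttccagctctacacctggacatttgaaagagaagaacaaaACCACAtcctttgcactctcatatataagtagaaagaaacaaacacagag
*Gzmk*, chr13:113180966-113181215, minus strand: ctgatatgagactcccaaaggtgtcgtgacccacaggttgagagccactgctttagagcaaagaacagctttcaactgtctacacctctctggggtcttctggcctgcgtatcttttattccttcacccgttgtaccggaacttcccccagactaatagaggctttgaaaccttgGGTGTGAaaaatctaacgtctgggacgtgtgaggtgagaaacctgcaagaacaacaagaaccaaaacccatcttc
*Gzmb*, chr14:56262335-56262584, minus strand: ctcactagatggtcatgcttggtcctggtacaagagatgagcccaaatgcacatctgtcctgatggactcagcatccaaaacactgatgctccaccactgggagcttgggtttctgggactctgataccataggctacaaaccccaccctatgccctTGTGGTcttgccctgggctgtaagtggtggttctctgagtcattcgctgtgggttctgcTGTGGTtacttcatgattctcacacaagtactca
*Prf1*, chr10:61297586-61297835, plus strand: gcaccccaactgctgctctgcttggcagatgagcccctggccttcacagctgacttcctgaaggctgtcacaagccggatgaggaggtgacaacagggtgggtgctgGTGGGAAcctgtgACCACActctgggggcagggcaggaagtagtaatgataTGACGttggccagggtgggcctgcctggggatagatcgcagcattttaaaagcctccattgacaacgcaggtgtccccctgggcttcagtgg

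In these windows *Prf1* has GTGGGAA 143 to 137 bases before the start. *Gzma* has a RUNX match 50 to 45 bases before it, on the opposite strand. *Gzmb* has 2 RUNX matches, 93 to 88 and 34 to 29 bases before the start. *Gzmk* has a T-box match 75 to 69 bases before it. The table holds 11 windows for 9 of the 10 genes, and none was matched for *Unc13d*. The RBPJ core was found in 1 of the 11 windows, beside 21.6% of all 32851 windows, and the longer form in the same 1, beside 5.42%. RUNX was found in 8 of 11 windows, beside 14% of all. T-box was found in 3, beside 3.33%. The full cyclic AMP element was found in 1, that of *Gzmc*, beside 1.55%, and its shorter form in 3, beside 17.8%. A match is a description of the letters and does not show binding.

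*Prf1*, *Srgn*, *Lamp1* and *Unc13d* had small differences of like size. *Prf1*, which encodes perforin, had a scanner signal of 4596.6 on the Control array and 2371.8 on the array labelled RFF4, and a level of 3.17 and 3.39 (difference 0.21). *Srgn*, the proteoglycan core to which granzymes and perforin bind in the granule, stood at 7.77 and 8.01 (difference 0.24). *Lamp1*, the lysosomal membrane glycoprotein that appears on the surface of a degranulating cell, stood at 6.05 and 6.31 (difference 0.26).

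*Unc13d* encodes Munc13-4, which primes docked granules for fusion, and stood at 3.83 and 4.06 (difference 0.23). The differences of *Prf1*, *Srgn*, *Lamp1* and *Unc13d* thus lay within 0.05 of each other at this scaling. Under processing that depends on brightness they lay farther apart, at 0.23, −0.34, −0.02 and 0.22 with quantile normalization and at 0.21, −0.12, 0.05 and 0.18 with cyclic loess, in the same order of genes. They were higher on the array labelled RFF4 at this scaling. *Prf1* and *Unc13d* kept that direction under only 9 of 11 alternatives, *Lamp1* under 8 and *Srgn* under 6. Of these 11, 5 could not change the direction, because they leave a gene with 1 bright probe all but unchanged.

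*Nkg7*, a granule membrane protein of NK cells and cytotoxic T cells, was the only one with 2 probes. The brighter probe stood at 8.56 on the Control array and 9.21 on the array labelled RFF4 (difference 0.64). The other stood at 7.76 and 8.23 (difference 0.47). Both were higher on the array labelled RFF4. The gap between their differences was smaller than the technical SD of 0.23 for a contrast over all levels. It was larger than the 0.080 for a contrast of the brightest probes. The gene kept its direction under 10 of 11 alternatives, of which some return its value unchanged by construction. It fell to 0.03 with quantile normalization and was −0.46 with spike-ins set equal.

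**Figure D2:**
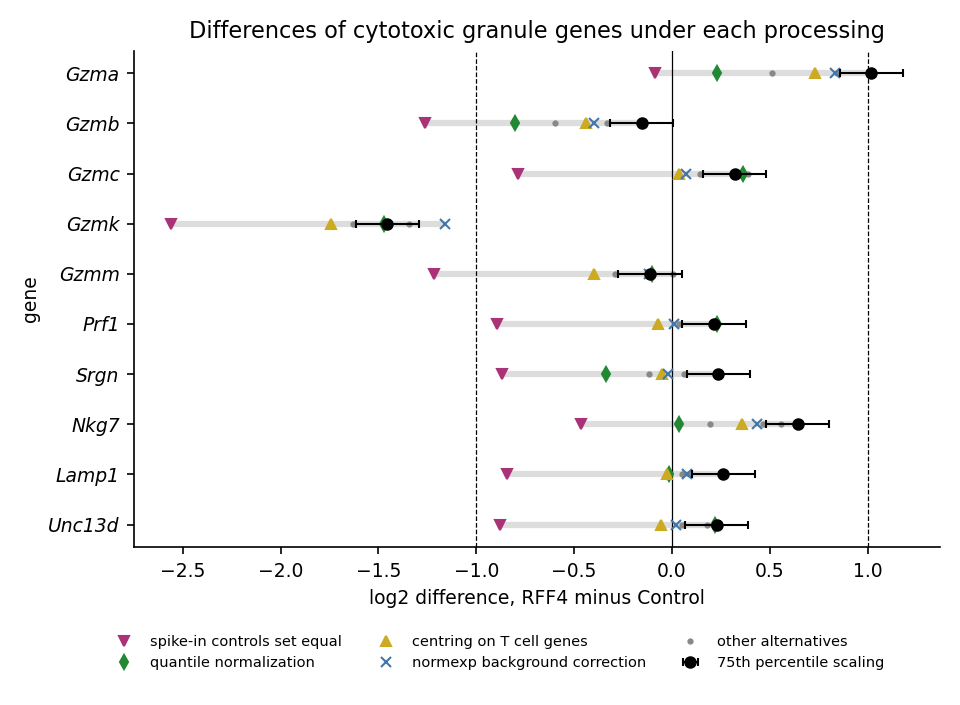
Difference of each cytotoxic granule gene (log2, RFF4 minus Control) with 75th percentile scaling (black, bar of 1 technical SD of 0.16) and under 11 other ways of processing (colored or gray marks, with a gray line from lowest to highest). *Gzmk* stays below −1 in each, *Gzma* ranges from −0.09 with spike-ins set equal to 1.02, and *Srgn*, *Lamp1*, *Prf1* and *Unc13d* lie on both sides of 0.

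The differences of bright genes were not centered on 0. Among the 120 genes with a mean level above 8, the median difference was 0.61 and 117 were higher on the array labelled RFF4. *Gzma*, *Nkg7* and *Gzmb* belong to this range. Only 4 of the 120 had a higher difference than *Gzma*, 49 had a higher one than *Nkg7*, and 0 had a lower one than *Gzmb*. *Gzmb* was thus the lowest of these 120 genes, although its own difference was close to 0. For *Srgn* and *Lamp1*, which lie between 6 and 8 with 399 genes, the median was 0.32, above their own 0.24 and 0.26. For *Gzmc*, *Prf1* and *Unc13d*, between 2 and 4, it was −0.09. For *Gzmk*, between −2 and 0, it was −0.01 with quartiles of −0.42 and 0.59.

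**Figure D3:**
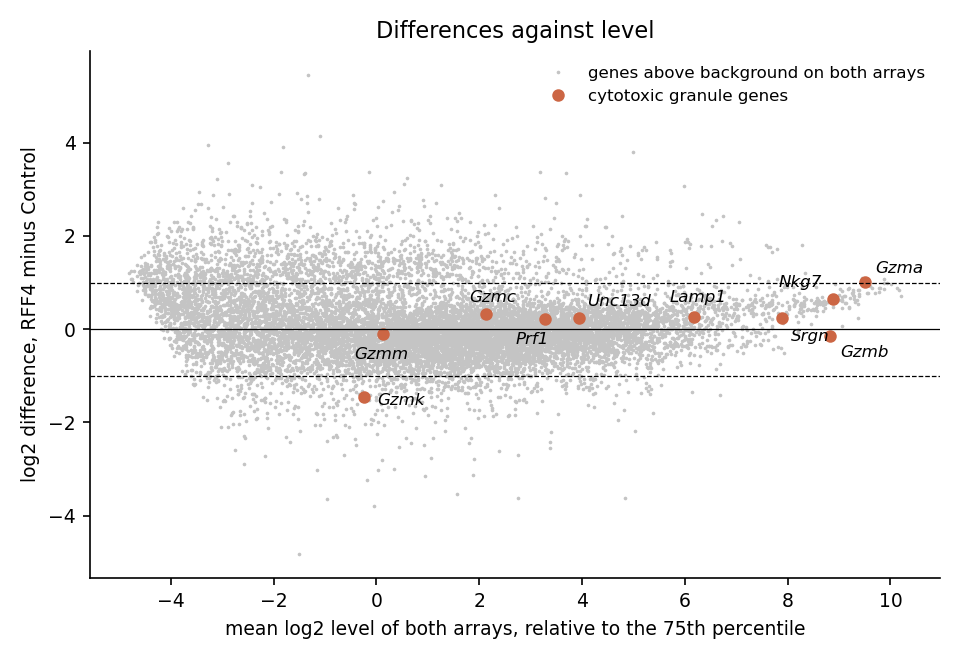
Difference (log2, RFF4 minus Control) against the mean level of both arrays (log2, relative to the 75th percentile) for the 12955 genes above background on both arrays (gray) and the cytotoxic granule genes (orange); dashed lines mark 2-fold. The cloud bends upward at the bright end, where *Gzma* and *Nkg7* lie within it and *Gzmb* lies below it, while *Gzmk* lies below the cloud's center at a low level; with spike-ins set equal all points shift down by 1.11.

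Against T cells themselves, the genes were compared with 15 T cell markers, such as *Cd3e*, *Lck* and *Cd8a*, whose differences ran from −0.80 to 3.22 with a median of 0.29. *Gzma* lay 0.73 above that median and *Nkg7* 0.36 above it. Relative to it, *Gzmb* lay at −0.44 and *Gzmm* at −0.40. *Gzmk* lay at −1.74 relative to it, and lower than all 15 markers. *Gzmc*, *Prf1*, *Srgn*, *Lamp1* and *Unc13d* lay within 0.08 of it. In pooled RNA, fewer cells that express a gene and less RNA per cell cannot be told apart.

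Genes listed as markers of other cells also differed between the arrays. All 15 epithelial genes matched on the array were higher on the array labelled RFF4 (median difference 1.59), and their summed linear level went from 234 to 715 times the 75th percentile signal. Of 13 macrophage and dendritic cell genes, 12 were higher (median 2.23, summed level 59.5 and 133). The brightest, *Itgax*, weighs most in these sums and had a difference of 0.20. The gene that went the other way, *Fcgr3*, was 5.76-fold lower. Of 6 B and plasma cell genes with a difference, 5 were higher (median 1.73, summed level 26.5 and 59.2). Among B cell genes, *Cd79b* stood at 3.42 and 3.17, and *Ms4a1* at −4.65 and −2.86 (3.46-fold higher). *Cd79a* and *Pax5* were not above background on either array.

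Mast cells and NK cells also store serine proteases in their granules. Of 8 mast cell genes with a difference, 6 were higher and 2 lower, from −1.46 to 2.65 (median 1.98, summed level 12.7 and 16.4). The sum joins opposite differences. The linear level of *Kit* alone went from 9.98 to 3.63 (2.75-fold lower), and that of the other mast cell genes together from 2.71 to 12.8. *Cpa3*, the mast cell carboxypeptidase, stood at −4.07 and −1.97. The mast cell proteases *Mcpt1*, *Mcpt2* and *Mcpt4* were 5.37-fold, 6.29-fold and 4.86-fold higher, and *Cma1* and *Ms4a2* were not above background on either array. Of 7 genes listed as NK cell markers and with a difference, 6 were lower (median −0.35). More than 2-fold lower were 2 of them, beside 5.06% of all genes, and more than 4-fold lower was 1, beside 0.585%. *Klri2*, which did not clear background on the array labelled RFF4, was at least 18.8-fold lower there, and *Klrb1c*, which encodes NK1.1, was 3.70-fold lower. The summed level of the list, in which bright probes weigh most, was 494 and 534, and without *Tyrobp* and *Fcer1g* it was 20.2 and 12.9. The defining NK cell gene *Ncr1* was not above background on either array, nor was *Ncam1*, a marker of human rather than mouse NK cells. *Tyrobp* and *Fcer1g* nevertheless stood at 7.72 and 8.04 on the Control array. The list is therefore not a measure of NK cells, and which cells gave its values was not tested. The part of other cells in the values of the cytotoxic granule genes was not tested either.

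The wider pathway was read from a list of 61 other genes for granule proteases, transport, inhibitors, death ligands and transcription factors. Of these, 60 were matched on the array and 54 had a difference. At 75th percentile scaling 26 were higher and 28 lower on the array labelled RFF4, with a median of −0.02, the same as over all genes. More than 2-fold higher were 8 of 54, beside 12.3% of all genes, and more than 2-fold lower was 1, beside 5.06%. With spike-ins set equal these counts were 0 and 30, beside 1.46% and 55.7% of all genes.

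Among 6 cathepsins, *Ctsh*, a lysosomal aminopeptidase, stood at 1.23 and 2.66 and was 2.69-fold higher on the array labelled RFF4. *Ctsl*, a lysosomal cysteine protease, stood at 3.20 and 1.79 and was 2.65-fold lower, the only gene of the list past that limit. *Ctsc*, which activates granzymes by removing their leading dipeptide, stood at 4.43 and 3.91 (difference −0.52). *Cd63*, a tetraspanin of the lysosome membrane, stood at 2.21 and 3.49 and was 2.44-fold higher, though just inside 2-fold with T cell centering (0.998) and at 0.18 with spike-ins set equal.

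Of 19 transport and fusion genes with a difference, 7 were higher and 12 lower, from −0.94 to 1.58. *Sytl1*, a partner of Rab27 proteins, stood at 2.46 and 4.04 and was 2.98-fold higher on the array labelled RFF4. *Snap23*, a SNARE of the plasma membrane, stood at 3.46 and 4.55 and was 2.13-fold higher by its brighter probe. Its other probe had a difference of 0.20, and the mean of both was 0.64. The brighter probe was also not past 2-fold with median scaling (0.91), normexp (0.90) or T cell centering (0.80), and its sign turned to −0.02 with spike-ins set equal. *Rab27a*, needed to dock granules, stood at 0.95 and 1.35 (difference 0.40).

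Of 7 inhibitors with a difference, 3 were higher and 4 lower. *Serpinb1a*, an inhibitor of serine proteases of neutrophils, stood at 2.71 and 4.27 and was 2.94-fold higher on the array labelled RFF4. *Serpinb9*, the inhibitor of granzyme B that protects cytotoxic cells, stood at 1.82 and 1.51 (difference −0.30). *Serpinb6b*, named after its value was seen, had the lowest difference of the 7 (−0.99, just inside 2-fold).

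Of the 6 death ligands and effector cytokines, 3 were more than 2-fold higher, beside 12.3% of all genes, and none (0) was with spike-ins set equal. *Tnf* stood at −1.04 and 0.40 (2.72-fold), *Lta* at −3.57 and −1.76 (3.50-fold) and *Ltb* at 5.18 and 6.999 (3.52-fold). *Fasl*, the death ligand that kills without granules, stood at 5.08 and 4.83 (difference −0.25), *Tnfsf10*, the death ligand TRAIL, at 4.14 and 4.35 (difference 0.21), and *Ifng*, the effector cytokine, at 4.34 and 4.83 (difference 0.49). The 6 genes of this role had a median difference of 0.97.

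None of the 11 transcription factors of cytotoxic lymphocytes with a difference was past 2-fold at 75th percentile scaling, read from the brightest probe of each. These counts of 0 in each direction stand beside 12.3% of all genes higher and 5.06% lower. With spike-ins set equal, 9 of the 11 were more than 2-fold lower, beside 55.7% of all genes. At 75th percentile scaling, 4 of the 11 were higher and 7 lower, from −0.71 to 0.32. *Tbx21*, which encodes T-bet, stood at 4.91 and 5.10 (difference 0.20). *Eomes*, its relative, stood at −2.64 and −2.32 (difference 0.32). Its other probe, not well above background on either array, had a nominal difference of 1.65, which brings the mean of both probes to 0.99. *Runx3*, required for the cytotoxic program of CD8 T cells, stood at 2.01 and 1.78 (difference −0.23). *Prdm1*, which encodes Blimp-1, was the lowest, at 1.31 and 0.60 (difference −0.71).

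**Figure D4:**
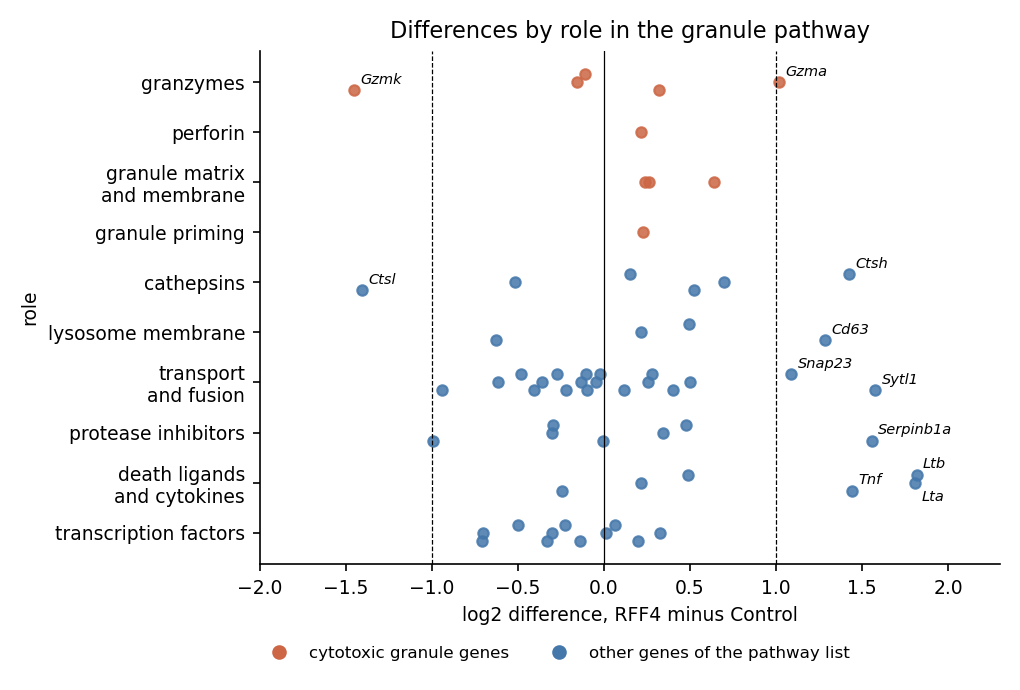
Difference (log2, RFF4 minus Control) of each cytotoxic granule gene (orange) and each other gene of the pathway list above background on at least 1 array (blue), by role, at 75th percentile scaling; *Gzme*, with a bound only, is not drawn, and genes past 2-fold (dashed lines) are named. *Tnf*, *Lta* and *Ltb* lie between 1.44 and 1.82, while no transcription factor is past 2-fold at this scaling; with spike-ins set equal every point shifts down by 1.11.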

How the data were processed

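Gene expression was measured on 2 Agilent mouse arrays of 1 color, 1 per genotype, each with 62976 spots. The authors deposited, per the file headers, output of Agilent Feature Extraction 10.7.1.1, whose intensity values are background-subtracted on a linear scale. The authors also deposited a table of normalized log2 values, centered per probe. Its differences between the arrays equal those of the scanner signals plus a constant, so it holds no level. The paper names GeneSpring without its settings.

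From the scanner signals, control and outlier spots were left out, the 75th percentile of each array's gene spots was subtracted on the log2 scale, and spots of a probe were averaged. Of the probes, 27509 were matched by RefSeq accession to a symbol of assembly GRCm38.p6. The probe with the brightest mean signal stood for its gene. A gene was kept if at least 50% of its probe's spots were well above background on 1 or both arrays, and where 1 array was dim, its level was replaced by the lowest level among probes above background, or its own if higher. With 1 array per genotype, the number of arrays limits the precision.

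Named genes were the 10 granule genes, pathway genes past 2-fold, 9 pathway genes given whatever their value, *Rbpj* and 6 defining markers, with markers not above background. *Lck*, the neighboring genes and the pathway genes *Tnfsf10* and *Serpinb6b* were added after their values were seen. So were the markers *Kit*, *Mcpt1*, *Mcpt2*, *Mcpt4*, *Klri2*, *Klrb1c*, *Tyrobp*, *Fcer1g*, *Itgax*, *Fcgr3*, *Cd79b* and *Ms4a1*. Other markers are given by counts, medians and sums, and 1 that this rule would name is not reported here. The genes, lists and alternatives were chosen with earlier results of these data known. The 11 alternatives were median scaling, quantile normalization, cyclic loess, spike-in scaling, centering on T cell genes, normexp background correction (offset 50), the authors' table, the mean of all probes, genes above background on both arrays, no filter or bound, and outlier spots kept. The steps were tested on simulated data. Calculations were run in Python 3.11.15 (pandas 2.3.3, numpy 2.4.6), plots in matplotlib 3.10.9, and limma 3.58.1 in R 4.3.3.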

Additional observations from a re-analysis of the deposited data

How the results depend on the processing

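*Gzmk* was more than 2-fold lower on the array labelled RFF4 under all 11 alternatives, and *Gzmb* was lower under all 11. For the granule genes with 1 probe, 5 of these cannot change a value by more than a constant of 0.012. The median difference of the 10 genes, 0.23 at 75th percentile scaling, was 0.056 with median scaling, 0.0087 with quantile normalization, 0.016 with normexp, −0.053 with T cell centering and −0.87 with spike-ins set equal. *Gzma* was not past 2-fold higher, leaving 0 of the 10 genes, with each of these and with cyclic loess. With spike-ins, 3 of the 10 passed the 2-fold limit downward (beside 55.7% of all genes) and 1 passed 4-fold (beside 6.38%). All 7 granule genes that were higher then turned lower, and of the genes past 2-fold higher *Gzma* (−0.087) and *Snap23* (−0.017) changed sign. Of the pathway list, 8 were more than 2-fold higher, against 6 with T cell centering, 7 with median scaling, normexp and the mean of all probes, 0 with spike-ins (beside 1.46% of all genes) and 13 with no filter and no bound (beside 30% of all genes). More than 2-fold lower was 1, against 2 with quantile, loess, normexp, the authors' table and no filter, 3 with median scaling and T cell centering, and 30 with spike-ins (beside 55.7%). These scalings moved the median of all genes by −0.17 (median), −0.29 (T cell) and −1.07 (spike-ins), and leaving out the filter by 0.27. Pairs more than 2 technical SDs apart numbered 19, and 34 with the SD at each gene's level, added after seeing the data. The cause of the other changes was not tested. No paired analysis was possible because each genotype has 1 array, and for the same reason no replicate could be left out.

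Signal over background limits *Gzme* to a bound and leaves *Gzmd*, *Gzmf*, *Gzmg* and *Gzmn* without a value. Spots of the dimmer genes, *Gzmk* on the array labelled RFF4 among them, have the larger technical SD of 0.24.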
